A study of Mus musculus with 24 samples.

Results

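The transcripts described here encode the NF-kappaB transcription factor subunits and the proteins that feed back on them in mouse spleen B cells. The 10 genes were chosen by name from NF-kappaB biology: the subunit genes Nfkb2, Rel, Rela and Relb, the inhibitor genes Nfkbia, Nfkbie, Nfkbiz and Nfkbid, and the genes for the ubiquitin enzymes Tnfaip3 and Birc3. They were chosen with earlier results of these data known, so counts of members beside shares of all genes are a description only. Each gene was represented by the probe set, among those annotated to that gene alone, whose mean over the 24 arrays was highest, and its other probe sets served as a check. The 10 genes were 10 of 18193 genes with such a probe set, they had 20 probe sets between them, and all 10 passed the filter on dim genes that left 11208 genes for testing. Values are log2 signals after GCRMA, a background correction and normalization for Affymetrix arrays, so a difference of 1 is a factor of 2.

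The study profiled 8 groups of B cells sorted from spleens of female C57BL/6 mice, with 3 arrays in each group and 24 in all. Resting follicular cells (B220+, AA4.1-, CD21 intermediate, CD23+) and marginal zone cells (CD21 high, CD23 low) came from mice aged 8 to 10 weeks that had not been immunized. A further group held follicular cells after 6 h in culture with F(ab')2 anti-IgM at 10 µg/ml and anti-CD40 at 2 µg/ml, antibodies that trigger the B cell receptor and CD40. The other groups came from mice immunized at 8 to 10 weeks with the hapten NP coupled to chicken gamma globulin in alum, and held cells that bound the related hapten NIP. Memory cells (B220+, IgG1+, CD38+, low in peanut agglutinin binding) and germinal center cells (B220+, IgG1+, CD38 dull, peanut agglutinin positive) were taken on day 7 and day 40, and plasma cells (B220+, IgG1 low, CD138+, lambda light chain positive) on day 7. The memory gate therefore covers switched IgG1 cells only. No follicular cells cultured for 6 h without the antibodies were analysed here, so culture and stimulation cannot be told apart, and neither can a cell's type and its sorting scheme, which differed between unimmunized and immunized mice. In sorted populations, fewer expressing cells and less RNA per cell cannot be told apart either. The labels name no animals, so the 3 arrays of a group may share a source, p-values measure only the spread between these samples, which may be technical. Precision is limited by having 3 arrays a group.

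NF-kappaB factors are dimers of Rel-family proteins that wait in the cytoplasm, held there by IkappaB inhibitors or by the unprocessed precursors of the subunits themselves. In the canonical pathway, antigen receptor or Toll-like receptor signals lead to destruction of the IkappaB proteins and release dimers with RelA or c-Rel, while CD40 and the BAFF receptor also engage the slower pathway in which the Nfkb2 product p100 is processed to p52, the partner of RelB. Many of the genes that the dimers activate encode their own inhibitors, and in B cells the pathway is best known for survival and for growth after activation.

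The recognition element of these dimers, the kappaB consensus, was searched on both strands in the stretch from 250 bases before to 50 bases after each annotated transcript start, in RefSeq sequences of the mouse build GRCm38.p6. Overlapping matches and a match that reads the same on both strands were reported by position, and a match describes letters and is not a known binding site. At least 1 match was present for 1388 of 27025 genes with such a sequence, or 5.14%, and in 1480 of 32851 windows, or 4.51%. Of the 8 members with a sequence, 6 held a match, in 8 of 13 windows, and 4 of the 8 had 2 or more matches in a single window, against 0.64% of all genes (174). Neighbouring starts of Nfkb2 gave overlapping windows that share a match, and the members had more windows per gene than genes at large. The members were chosen as NF-kappaB genes, so these shares are a description and carry no test. Rela and Birc3 had no match in these windows, and Relb and Nfkbiz were not among the sequences. The stretches below are those of the 6 genes with a match. All but Nfkbia pass both the p and the fold threshold in at least 1 comparison below, and Nfkbia is shown as the gene whose chosen probe set varied least. They are written 5′ to 3′ on the gene's strand, with the bases of the match in capitals.
Nfkb2: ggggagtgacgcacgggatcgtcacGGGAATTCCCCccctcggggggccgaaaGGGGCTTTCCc
Rel: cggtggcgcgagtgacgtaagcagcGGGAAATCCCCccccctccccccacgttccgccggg
Nfkbie: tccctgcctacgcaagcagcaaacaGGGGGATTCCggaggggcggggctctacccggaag
Nfkbia: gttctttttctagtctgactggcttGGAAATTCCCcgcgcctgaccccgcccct
Nfkbid, upstream match: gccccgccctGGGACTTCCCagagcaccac
Nfkbid, downstream match: gggccgaacaGGAATTCCCCgtgcgcgggg
Tnfaip3, upstream match: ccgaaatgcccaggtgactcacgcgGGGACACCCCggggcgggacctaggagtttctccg
Tnfaip3, downstream match: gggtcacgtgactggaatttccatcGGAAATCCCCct
The Nfkb2 stretch lies at chr19:46304673-46304736 on the plus strand, ends 1 base before the start, and holds 3 matches, of which the first pair overlap and the last runs from 11 to 2 bases before the start. The Rel stretch (chr11:23771026-23771086, minus strand) holds 2 overlapping matches that begin 92 and 91 bases before the start, and the Nfkbie stretch (chr17:45555569-45555628, plus strand) holds 1 that begins 106 bases before it. The Nfkbia stretch (chr12:55492648-55492701, minus strand) has its match 29 bases before the start. The Nfkbid stretches (chr7:30422170-30422199 and chr7:30422215-30422244, plus strand) have matches beginning 226 and 181 bases before one of the annotated starts. The Tnfaip3 stretches (chr10:19015501-19015560 and chr10:19015411-19015447, minus strand) have matches beginning 125 and 12 bases before the start. Both the subunit genes and the inhibitor genes were thus among those with a match.

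The arrays of each group correlated at r = 0.961 to 0.996 across genes, and no 2 arrays were identical. The 4 B cell markers analysed had their lowest mean log2 signal in plasma cells (10.19 to 10.33, against 12.83 to 12.91 in follicular cells). After stimulation these markers averaged 10.68 to 11.10. One of them, Pax5, was at the floor of 2.15 on all 3 plasma arrays and read 2.16, 3.12 and 3.55 after stimulation, against 5.95, 6.62 and 6.47 in follicular cells, and the 5 plasma cell markers reached 14.23 to 14.27 in plasma cells. Some arrays stood apart in markers of other cells. Germinal center markers averaged 11.02 in day 7 memory replicate 1 against 6.81 and 7.34 in the other two, and 9.41, 9.37 and 7.50 in the day 40 memory arrays. The 8 myeloid markers averaged 3.38 to 3.63 in follicular cells, 4.91 to 7.98 in day 7 memory cells, 5.37 to 7.82 in day 40 memory cells, 8.05 in day 40 germinal center replicate 1 against 3.50 and 3.24 in its partners, and 8.69 to 9.07 in plasma cells. Of those 8, 2 were at background on all plasma arrays and 1 on all day 7 memory arrays. Markers of NK cells and erythroid cells lay near that floor on nearly all arrays, with the highest mean, 4.42, for NK markers in plasma replicate 2. The 6 T cell markers averaged 2.64 to 3.72 in plasma cells and at most 2.94 on the arrays of the other groups. The 14 genes listed as markers of stress and cell handling averaged 9.35 to 9.88 in follicular cells, 8.34 to 9.01 after stimulation, 11.23 to 12.45 and 12.60 to 13.27 in memory cells on day 7 and day 40, 10.83 to 11.48 and 11.62 to 11.80 in germinal center cells on those days, and 12.40 to 13.14 in plasma cells.

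All 10 members were above the median signal of the array on all 24 arrays, with a lowest single value of 7.37. Each gene's probe set has its own response to RNA, so levels are compared between groups and not between genes. In limma's test of any difference among the 8 groups, all 10 had an adjusted p under 0.05, as did 91.3% of the tested genes. The members differed widely in how far they moved. The gap between the highest and the lowest group mean was 5.35 for Nfkbid, 4.59 for Rel, 4.27 for Nfkbie, 3.49 for Nfkb2, 3.46 for Relb and 2.82 for Tnfaip3, but 0.76 for Rela and 0.69 for Nfkbia. The gap for Birc3 and for Nfkbiz was 1.89. The median gap was 3.14 over the members and 2.13 over all tested genes.

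**Figure D1:**
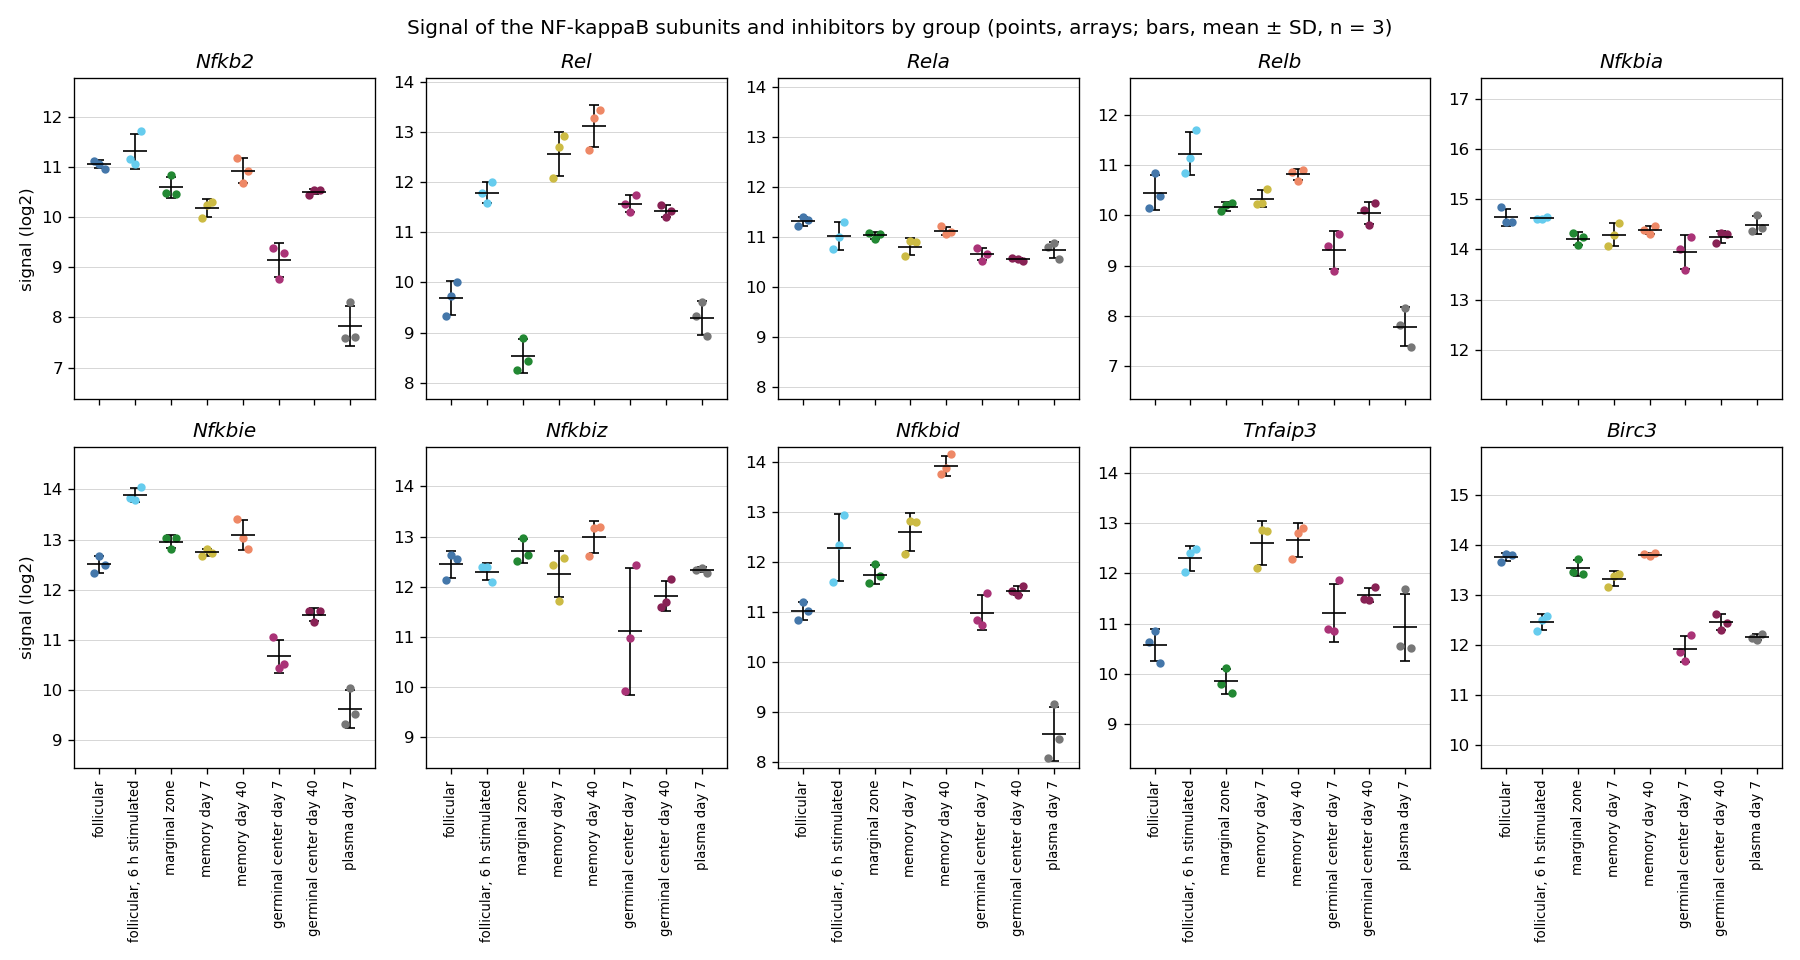
Each panel plots the GCRMA log2 signal of 1 gene (vertical axis) in the 8 groups of B cells (horizontal axis), with a point for each of the 3 arrays and bars for the group mean ± SD. Rel, Nfkbid, Tnfaip3, Nfkbiz and Birc3 have their highest means in day 40 memory cells, where the arrays of all but Nfkbid overlap those of the next group. Nfkb2, Relb, Nfkbie and Nfkbid have their lowest in plasma cells, and Rela and Nfkbia stay within 0.76 and 0.69 log2 units.

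Below, a gene is said to have risen or fallen when the limma fit over all 24 arrays gave a Benjamini-Hochberg adjusted p under 0.05 over the 11208 tested genes together with a difference of at least 1 log2 unit. All comparisons with follicular cells use the same 3 follicular arrays. Every ± after a difference is the standard error of that fit, and every ± after a group mean is the SD of its 3 arrays.

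Rel, which encodes the c-Rel subunit characteristic of lymphocytes, had the widest range of group means among the subunit genes. Its signal was 9.33, 9.72 and 10.01 in the follicular arrays and 12.64, 13.29 and 13.44 in the day 40 memory arrays, with 12.08, 12.70 and 12.92 in day 7 memory cells. No memory array came near a follicular one, and Rel rose by 3.44 ± 0.25 (10.8-fold, adjusted p = 1.03e-08) on day 40 and by 2.88 ± 0.25 (7.36-fold, adjusted p = 7.84e-08) on day 7. After stimulation the arrays read 11.78, 11.59 and 12.01, a rise of 2.11 ± 0.25 (4.31-fold, adjusted p = 9.12e-07). Germinal center cells held similar levels, at 11.57, 11.40 and 11.75 on day 7 and 11.54, 11.30 and 11.43 on day 40, 1.89 and 1.74 above follicular cells (adjusted p = 5.29e-06 and 1.20e-05). Marginal zone cells were the lowest group, at 8.25, 8.90 and 8.44. Their fall of 1.16 ± 0.25 (adjusted p = 0.00271) rested partly on follicular replicate 3, without which the difference was -0.99 and missed the fold threshold. Plasma cells read 9.33, 9.60 and 8.93 and were not distinguishable from follicular cells (-0.40). In the descending order day 40 memory, day 7 memory, stimulated, day 7 germinal center, day 40 germinal center, follicular, plasma, marginal zone, the arrays of neighbouring groups overlapped in 4 of 7 steps.

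Rela encodes RelA, the widely expressed canonical subunit with a strong activation domain, and it was nearly flat. Its means ran from 10.55 in day 40 germinal center cells to 11.31 in follicular cells, neighbouring groups overlapped in 7 of 7 steps, and no pair of groups passed the fold threshold. The lower values in germinal center cells (10.78, 10.53 and 10.66 on day 7, 10.58, 10.55 and 10.53 on day 40) did not overlap the follicular arrays (11.21, 11.39 and 11.33), but the differences were only -0.65 and -0.76.

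Nfkb2 and Relb, whose products p52 and RelB form the dimer of the slower pathway, had their lowest levels in plasma cells. Nfkb2 read 7.59, 8.30 and 7.60 in plasma cells against 11.13, 11.06 and 10.97 in follicular cells, a fall of 3.22 ± 0.21 (9.34-fold, adjusted p = 1.94e-10). Relb read 7.81, 8.15 and 7.37 against 10.15, 10.84 and 10.38, a fall of 2.68 ± 0.24 (6.41-fold, adjusted p = 1.26e-08). For both genes every plasma array lay below every array of all other groups, by the chosen probe set. Day 7 germinal center cells came next. Nfkb2 was 9.39, 8.76 and 9.28 there, and it fell by 1.91 ± 0.21 from follicular cells (adjusted p = 5.88e-07), while Relb was 9.39, 8.89 and 9.63 and fell by 1.15 ± 0.24 (adjusted p = 4.93e-04). The Relb fall slipped under the fold threshold, at -0.96 without follicular replicate 2 and at -0.95 without day 7 germinal center replicate 2. By day 40, Nfkb2 in germinal center cells read 10.45, 10.54 and 10.54, a rise of 1.37 ± 0.21 over day 7 (adjusted p = 2.11e-04) with no overlap. The second Nfkb2 probe set gave 0.12 for that comparison, so the rise between the days held for 1 of 2 probe sets only. That second probe set gave the same fall as the chosen one in plasma cells (-3.23), and -1.17 in day 7 germinal center cells, which did not pass the adjusted p. Its plasma arrays spread widely (6.45, 8.99 and 6.47), and replicate 2 reached the lowest germinal center arrays (8.94 on day 7 and 8.99 on day 40). Stimulation left Nfkb2 at 11.16, 11.07 and 11.72 and moved Relb to 10.85, 11.15 and 11.70, a difference of 0.78 (adjusted p = 0.00934) that was under the fold threshold. Neither gene rose in memory cells, where Nfkb2 was 10.18 ± 0.18 and 10.93 ± 0.25 and Relb 10.33 ± 0.17 and 10.82 ± 0.11 on day 7 and day 40. On day 7 Nfkb2 was below every follicular array, by -0.87 (adjusted p = 0.00372 in limma), under the fold threshold. The second Nfkb2 probe set gave -0.13 there.

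Among the cytoplasmic inhibitors, Nfkbia and Nfkbie behaved differently. Nfkbia encodes IkappaBalpha, the best-known early feedback inhibitor, and the signal of its chosen probe set lay between 13.59 and 14.84 on all 24 arrays. Stimulated cells read 14.61, 14.61 and 14.64 and follicular cells 14.84, 14.54 and 14.55, a difference of -0.02 (adjusted p = 0.955). The largest difference from follicular cells was -0.69 ± 0.16 in day 7 germinal center cells, short of the fold threshold, and neighbouring groups overlapped in 7 of 7 steps. The flatness depended partly on the probe set. In plasma against day 7 germinal center cells the chosen one gave 0.54 and the dimmest of the 5 gave 1.18, which passed. The others gave 0.42, 0.47 and 0.97 there, short of the fold threshold.

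Nfkbie encodes IkappaBepsilon, an inhibitor that binds c-Rel and RelA dimers. Its signal was 12.34, 12.67 and 12.50 in follicular cells, 13.83, 13.78 and 14.04 after stimulation, 11.05, 10.44 and 10.52 in day 7 germinal center cells and 9.31, 10.03 and 9.51 in plasma cells. These 4 groups did not overlap one another. Nfkbie rose by 1.38 ± 0.19 (2.60-fold, adjusted p = 4.96e-06) on stimulation, fell by 1.83 ± 0.19 (adjusted p = 2.36e-07) in day 7 germinal center cells, and fell by 2.89 ± 0.19 (7.40-fold, adjusted p = 1.83e-10) in plasma cells. Day 40 germinal center cells, at 11.58, 11.36 and 11.57, differed from follicular cells by -1.0 (adjusted p = 2.05e-04), exactly at the fold threshold. That call was lost under small changes, among them leaving out follicular replicate 2 (-0.92) or day 40 germinal center replicate 2 (-0.93). Memory cells (12.74 ± 0.07 and 13.09 ± 0.30) and marginal zone cells (13.04, 12.81 and 13.03) stood slightly above follicular cells, by less than the fold threshold.

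Nfkbid and Nfkbiz encode IkappaBNS and IkappaBzeta, ankyrin-repeat proteins of the nucleus that bind NF-kappaB dimers and adjust transcription rather than retain the dimers in the cytoplasm. Nfkbid had the widest range of the members. It read 10.84, 11.19 and 11.02 in follicular cells, 12.16, 12.81 and 12.80 in day 7 memory cells, 13.75, 13.87 and 14.14 in day 40 memory cells and 8.09, 9.15 and 8.46 in plasma cells, with no overlap between any of these groups. It rose by 1.57 ± 0.30 on day 7 (adjusted p = 4.11e-04) and by 2.90 ± 0.30 on day 40 (7.48-fold, adjusted p = 5.82e-07), and fell by 2.45 ± 0.30 in plasma cells (5.46-fold, adjusted p = 7.53e-07). Day 40 memory cells stood 1.33 ± 0.30 above day 7 (adjusted p = 0.00685, or 0.0554 when only those 6 arrays entered the fit). Stimulated arrays spread from 11.59 to 12.33 and 12.93, and the rise of 1.27 ± 0.30 over follicular cells (adjusted p = 0.00122) fell short of the fold threshold without stimulated replicate 3 (0.94). Germinal center cells (10.98 ± 0.35 and 11.42 ± 0.09) and marginal zone cells (11.57, 11.95 and 11.71) differed from follicular cells by less than 1.

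For Nfkbiz the result depended on the probe set. The brightest one read 12.14, 12.63 and 12.56 in follicular cells and 12.39, 12.40 and 12.10 after stimulation, a difference of -0.15 ± 0.41. The second read 11.27, 11.34 and 11.20 and then 12.76, 12.69 and 12.54, a rise of 1.39 ± 0.30 without overlap, and the dimmest one, read 4.46, 6.27 and 4.95 and then 7.45, 7.93 and 9.20, a rise of 2.97 ± 0.50. In day 40 memory cells the 3 probe sets gave 0.55, 1.27 and 3.08 over follicular cells, of which those other than the brightest passed the test. In day 7 germinal center cells they gave -1.34, -0.19 and 0.40, of which the brightest alone passed. The brightest probe set read 9.92, 10.97 and 12.43 there (SD 1.26, the widest of any chosen probe set in any group), overlapped the follicular arrays, and gave -0.74 without day 7 germinal center replicate 1. No direction is therefore given for Nfkbiz on stimulation or in germinal center cells. Where Nfkbiz enters the counts of members below, it does so by its brightest probe set unless stated otherwise.

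**Figure D2:**
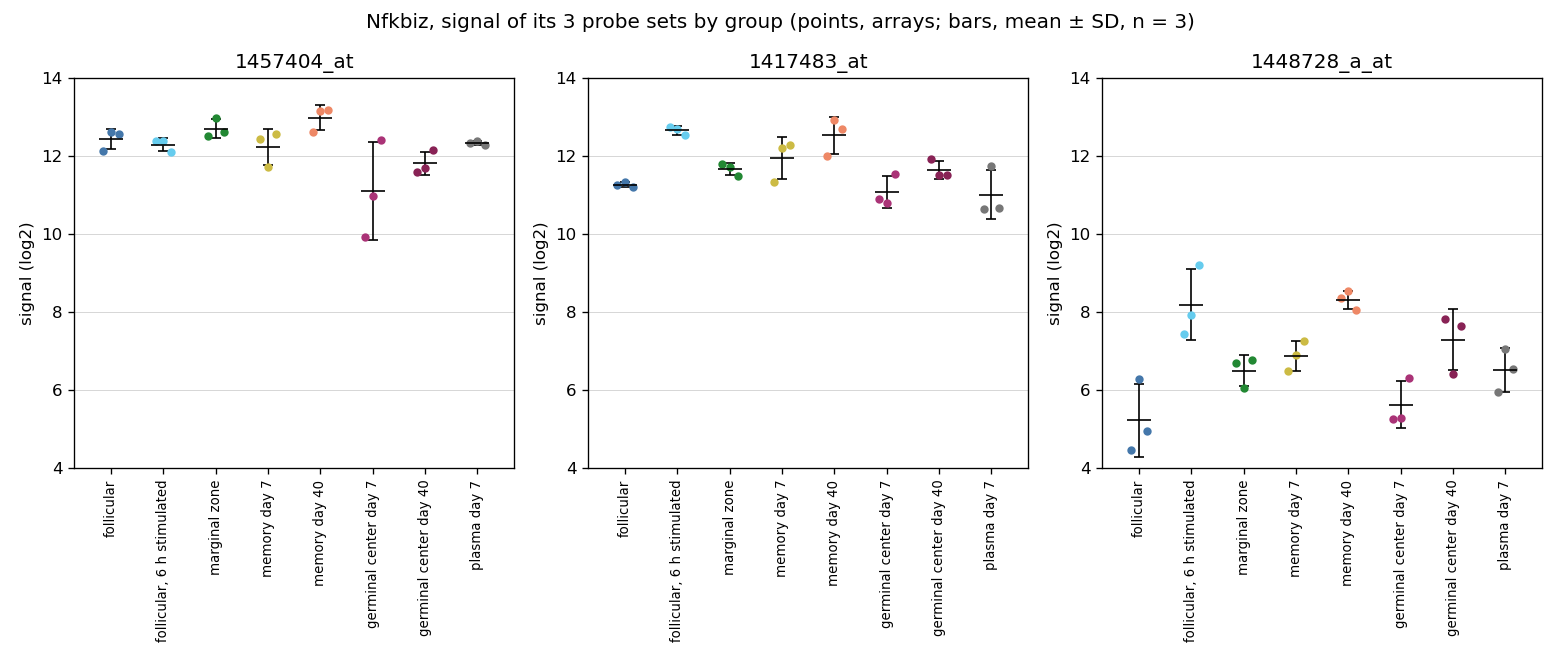
The GCRMA log2 signal (vertical axis) of the 3 probe sets annotated to Nfkbiz is plotted for the 8 groups (horizontal axis), with a point for each array and bars for each group's mean ± SD (n = 3). The brightest probe set is level between follicular and stimulated cells (12.44 and 12.30), whereas the means of the second go from 11.27 to 12.66 and those of the dimmest from 5.23 to 8.19.

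Tnfaip3 encodes A20, a ubiquitin-editing enzyme that shuts off signalling upstream of the IkappaB kinase. It read 10.64, 10.85 and 10.22 in follicular cells, 12.02, 12.41 and 12.48 after stimulation, 12.10, 12.87 and 12.85 in day 7 memory cells and 12.28, 12.80 and 12.91 in day 40 memory cells. The stimulated and memory arrays overlapped one another and lay above every follicular array. Tnfaip3 rose by 1.73 ± 0.32 on stimulation (3.33-fold, adjusted p = 1.42e-04), by 2.04 ± 0.32 in day 7 memory cells (adjusted p = 7.83e-05) and by 2.09 ± 0.32 in day 40 memory cells (adjusted p = 8.15e-05). Day 40 germinal center cells (11.49, 11.48 and 11.73) were 0.997 above follicular cells, just short of the fold threshold. Marginal zone cells were lowest at 9.80, 10.12 and 9.62, a difference of -0.72 that did not pass. A second, dim probe set (mean 2.50 over all arrays, near the lowest value the arrays report, 2.15) gave 0.13 on stimulation and 0.92 in day 40 memory cells, which did not pass, and 1.42 in day 7 memory cells (3.16, 4.77 and 2.84), which did (adjusted p = 0.0130).

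Birc3 encodes cIAP2, a ubiquitin ligase of the TNF receptor complexes that also restrains the kinase of the slower pathway. Unlike the other feedback genes it fell on stimulation, from 13.66, 13.81 and 13.79 to 12.29, 12.50 and 12.59, by 1.29 ± 0.13 (2.45-fold, adjusted p = 1.24e-07) with no overlap. It was 11.87, 11.69 and 12.20 in day 7 germinal center cells, 12.63, 12.31 and 12.44 in day 40 germinal center cells and 12.15, 12.10 and 12.23 in plasma cells, which differed from follicular cells by -1.83, -1.29 and -1.59 (adjusted p = 2.52e-09, 1.71e-07 and 5.42e-09). Memory cells kept the follicular level on day 40 (13.82, 13.77 and 13.83) and differed from it by -0.43 on day 7.

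**Figure D3:**
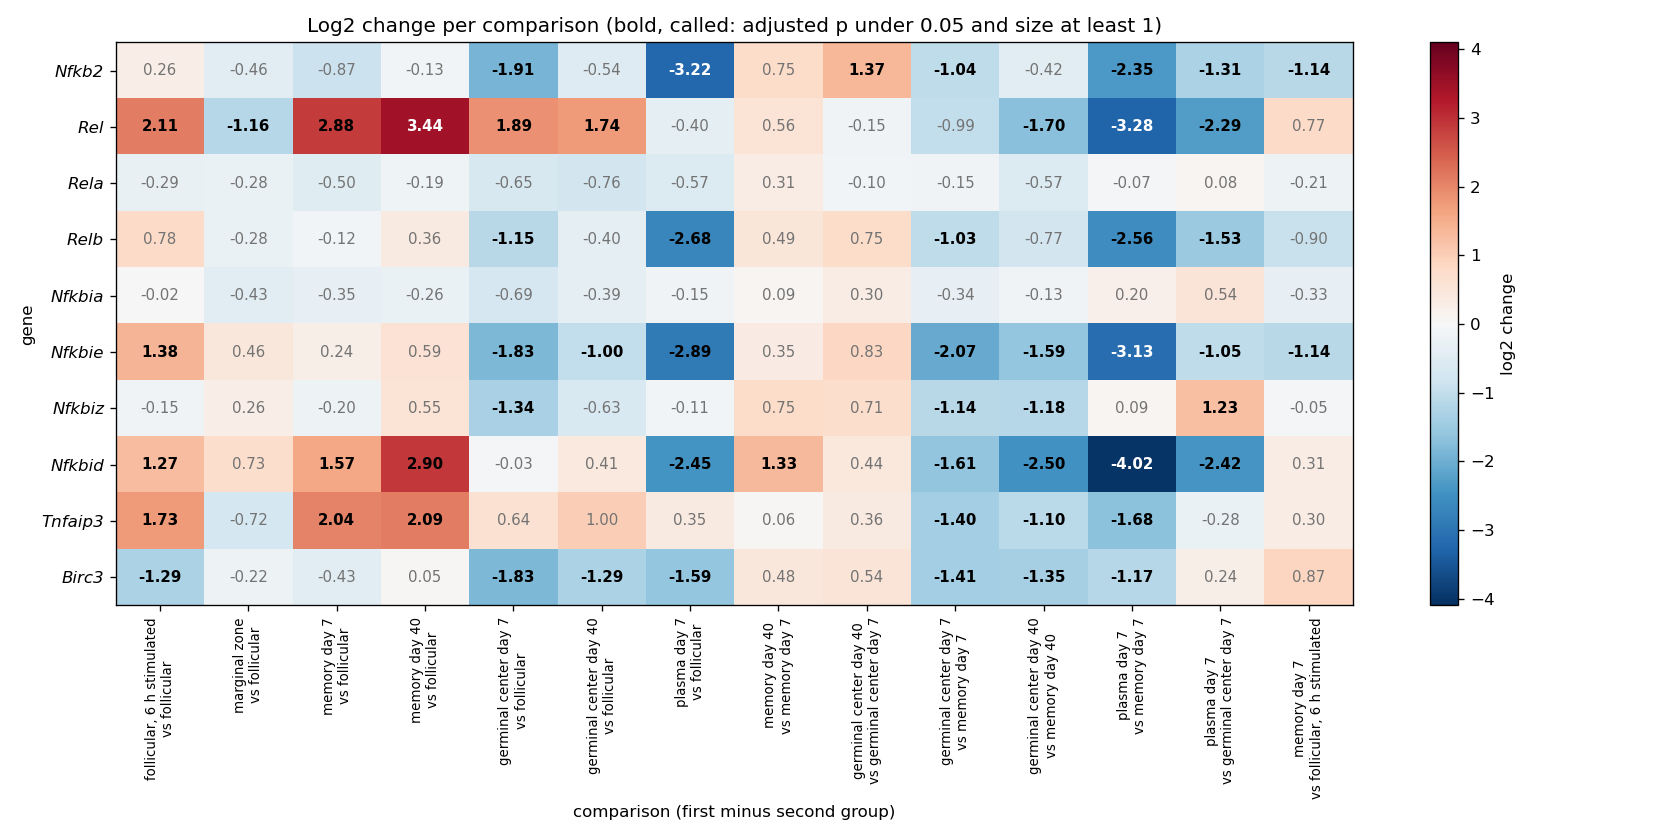
Each cell gives the log2 difference of a member (rows) in 1 comparison between groups (columns), coloured from blue (lower in the first group) to red (higher), and bold values mark adjusted p under 0.05 with a difference of at least 1. Both memory columns show Rel, Nfkbid and Tnfaip3 higher than in follicular cells, and the plasma column shows 5 members lower and none higher. The Tnfaip3 value for day 40 germinal center cells was 0.997 and was not called.

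Counted by comparison, stimulation raised 4 members (Rel, Nfkbie, Nfkbid and Tnfaip3) and lowered 1 (Birc3), where 16.9% and 22.4% of all tested genes rose and fell. The arrays of the groups did not overlap for 6 members and for 58.9% of all tested genes. The median difference was 0.52 over the members and -0.02 over all tested genes. The pathway's other components, 35 tested genes from receptors to kinases and deubiquitinases, had 6 that rose and 11 that fell. Those that rose included the adaptor Traf1 (1.77), the inhibitor Nfkbib (1.54), the repressor Nkrf (1.40) and N4bp1 (1.31). Those that fell were led by Usp18 (-7.13, to background), the adaptor Traf5 (-5.96), the receptor Tlr4 (-4.99) and Map3k14, the kinase of the slower pathway (-4.11). They also included the nuclear IkappaB Bcl3 (-1.92) and Cd40 itself (-1.12), which were picked out after their values were seen. Of 26 tested genes listed as NF-kappaB targets, 9 rose and 7 fell: the chemokine genes Ccl4 and Ccl3 rose by 9.29 and 9.25 from a follicular signal at background, the growth regulator Myc and the survival gene Bcl2l1 rose by 3.58 and 3.46, and Ltb, Lta and Bcl2 fell by 7.69, 6.79 and 5.21. In the same arrays 2 of 14 stress genes rose and 5 fell.

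In both memory groups 3 members rose and 0 fell against follicular cells, and they were Rel, Nfkbid and Tnfaip3 each time, in comparisons that share the follicular arrays. On day 7, 9.18% of all tested genes rose and 9.19% fell, and on day 40, 7.23% and 6.54%. Arrays did not overlap for 8 members on day 7 (47.1% of tested genes) and for 5 on day 40 (40.5%). At an unadjusted p under 0.05 in limma, 4 members were lower on day 7 and 0 on day 40. The median difference of the members was -0.16 on day 7 and 0.46 on day 40, against -0.04 for all tested genes on both days. Leaving out day 7 memory replicate 1, the array with high germinal center and myeloid markers, left the day 7 counts at 3 and 0. Its partners still had myeloid markers above the follicular arrays (4.91 and 5.72, against 3.38 to 3.63), and the day 40 arrays were all kept. The part of other cells in the rises was therefore not tested. Among the 35 other pathway genes 3 rose and 4 fell on day 7, and 2 rose and 1 fell on day 40, with Traf1 up by 2.24 and 2.53, and Tnfrsf17, at background in follicular cells, up by 2.79 on day 7. Of the 26 targets, 8 rose and 2 fell on day 7, among them the costimulatory genes Cd86 (4.41) and Cd80 (4.32, from a follicular signal at background) and the death receptor gene Fas (4.35), of which Cd80 and Fas also stand on the memory and germinal center marker lists, and 9 rose and 0 fell on day 40, when 2 were lower at an unadjusted p under 0.05. In the same comparisons 6 and 12 of the 14 stress genes rose and 0 fell, and the part of that in the rise of the 3 members was not tested.

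Set directly beside stimulated follicular cells, day 7 memory cells had 2 members lower and 0 higher, where 19.5% and 23.2% of all tested genes were lower and higher, and at an unadjusted p under 0.05, 2 were higher and 4 lower. Arrays did not overlap for 6 members and 61.5% of tested genes. Nfkb2 and Nfkbie both differed by -1.14, while Nfkbid and Tnfaip3 differed by 0.31 and 0.30 and their arrays overlapped. Shifting all arrays to a common median, which moved the median of all tested genes from 0.00 to 0.30 in this comparison, gave 2 higher (Rel at 1.06 and Birc3 at 1.16) and 0 lower. In that comparison 54.4% of called genes were higher, and 65.3% after the shift. The Nfkb2 difference was also -0.94 without stimulated replicate 3, and leaving out day 7 memory replicate 1 brought Rel to 1.02 and into the higher calls.

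Germinal center cells had more Rel and less Nfkbie and Birc3 than follicular cells on both days, and less Nfkb2 and Relb on day 7. On day 7, 1 member was called higher (Rel) and 5 lower (Nfkb2, Relb, Nfkbie, Birc3 and, by its brightest probe set alone, Nfkbiz), where 14.4% and 16.6% of tested genes rose and fell. The arrays of 8 members did not overlap on day 7 (57.7% of tested genes), nor did those of 8 members on day 40 (64.0%). The median was -0.92 over the members and 0.00 over all tested genes. On day 40, 1 rose (Rel) and 2 fell (Nfkbie and Birc3), where 16.8% and 15.6% of tested genes did so, with a median of -0.47. In the same comparisons 5 of the 14 stress genes rose and 3 fell on day 7, and 6 rose and 1 fell on day 40, and their part in the member differences was not tested. Of the 35 other pathway genes 2 rose and 12 fell on day 7, including Traf1 (1.82) and Otulin (1.46) in one direction and Usp18 (-3.18), Tlr4 (-2.51), Bcl3 (-1.82) and Cd40 (-1.63) in the other. On day 40, 1 rose and 7 fell, led by Usp18 (-5.08), the kinase gene Ikbkb (-1.56), the receptor gene Tnfrsf13b (-1.54) and Malt1 (-1.41). Against day 7, day 40 germinal center cells had 1 member higher (Nfkb2) and 0 lower, where 3.58% and 2.36% of tested genes were called, and 4 members higher and 0 lower at an unadjusted p under 0.05. Arrays of the 2 days did not overlap for 4 members and 27.5% of tested genes. Day 40 memory cells against day 7 also had 1 higher (Nfkbid) and 0 lower, where 2.74% and 2.28% were called, and 5 higher and 0 lower at an unadjusted p under 0.05. Arrays of the memory groups did not overlap for 7 members and 26.8% of tested genes.

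The direct comparison of germinal center with memory cells of the same day addresses how the 2 products of the response differ. On day 7, 7 members were lower in germinal center cells and 0 higher, where 12.1% of tested genes were lower and 11.6% higher. Nfkbie differed by -2.07 ± 0.19 (4.21-fold, adjusted p = 1.12e-07), Nfkbid by -1.61 ± 0.30 (adjusted p = 2.47e-04), Birc3 by -1.41 ± 0.13 (adjusted p = 1.66e-07) and Tnfaip3 by -1.40 ± 0.32 (adjusted p = 0.00177). The others were Nfkb2 (-1.04), Relb (-1.03) and Nfkbiz (-1.14, with overlapping arrays). Rel differed by -0.993 (adjusted p = 0.00389 in limma) without overlap, just short of the fold threshold. Without day 7 memory replicate 1 the Rel difference was -1.24, which passed. The count was 4 without day 7 memory replicate 3 and 4 without day 7 germinal center replicate 2, since Nfkb2, Relb and Nfkbiz lay near a threshold. On day 40, 6 members were lower and 0 higher, where 12.6% and 15.3% of tested genes were called. Nfkbid differed by -2.50 ± 0.30 (5.64-fold, adjusted p = 1.48e-06), Rel by -1.70 ± 0.25 (adjusted p = 2.01e-05), Nfkbie by -1.59 ± 0.19, Birc3 by -1.35 ± 0.13, Nfkbiz by -1.18 ± 0.41 and Tnfaip3 by -1.10 ± 0.32. The Tnfaip3 difference was -0.97 without day 40 memory replicate 3, and the Nfkbiz call was lost without any 1 of 4 arrays. At an unadjusted p under 0.05, 0 members were higher on either day and 9 and 8 were lower. Arrays did not overlap for 7 members on day 7 (47.5% of tested genes) and 9 on day 40 (58.6%). The member medians were -1.09 and -1.14, against 0.01 and 0.02 over all tested genes. The test of whether the difference itself changed from day 7 to day 40 called 0 of 10 members in limma, with 2 at an unadjusted p under 0.05, and 2.91% and 2.03% of tested genes called in each direction. Among the 26 targets 0 were higher and 8 lower on day 7, led by the survival gene Bcl2 (-6.20) and the homing receptor gene Ccr7 (-5.12), with 2 higher at an unadjusted p under 0.05, and 3 were higher and 9 lower on day 40. Of the 14 stress genes 5 were lower and 1 higher on day 7 (6 lower and 4 higher at an unadjusted p under 0.05). On day 40, 5 were lower and 0 higher (6 lower and 0 higher at an unadjusted p under 0.05). Of the 7 tested myeloid markers 3 were lower on day 7 and 2 on day 40. The part of the stress genes and myeloid markers in the member differences was not tested.

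Plasma cells had 5 members lower than follicular cells (Nfkb2, Relb, Nfkbie, Nfkbid and Birc3) and 0 higher, where 22.4% and 20.3% of tested genes were called. The median was -1.08 over the members and -0.05 over all tested genes, and 0 members were higher and 6 lower at an unadjusted p under 0.05. Arrays did not overlap for 6 members and 67.9% of tested genes. Rel, Tnfaip3 and Nfkbia stood at -0.40, 0.35 and -0.15. Against day 7 memory cells, plasma cells had 7 members lower and 0 higher, where 18.7% and 17.9% of tested genes were called, and the same counts at an unadjusted p under 0.05. Arrays did not overlap for 7 members and 59.3% of tested genes. Nfkbid differed by -4.02 ± 0.30 (16.3-fold, adjusted p = 1.07e-09), Rel by -3.28 ± 0.25 (9.71-fold, adjusted p = 2.19e-09) and Nfkbie by -3.13 ± 0.19 (8.73-fold, adjusted p = 7.09e-11). Against day 7 germinal center cells 5 were lower and 1 higher, where 20.1% and 18.1% of tested genes were called, and the arrays of 6 members and 61.2% of tested genes did not overlap. The differences were -2.42 for Nfkbid, -2.29 for Rel, -1.53 for Relb, -1.31 for Nfkb2 and -1.05 for Nfkbie. Nfkbie was at -0.86 without day 7 germinal center replicate 1 and at -0.90 without plasma replicate 1. The higher member was Nfkbiz (1.23), whose arrays overlapped and which was at 0.63 without day 7 germinal center replicate 1. Its second and dimmest probe sets gave -0.067 and 0.89 in this comparison, and neither passed.

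Other genes of the pathway also fell in plasma cells against follicular cells: 13 of 35 fell and 2 rose. Cd40 fell by 5.40, Map3k14 by 4.85, Bcl3 by 4.79 and the kinase gene Prkcb by 3.44, whereas Tnfrsf17, which encodes the plasma cell receptor BCMA, rose by 10.02 from background. Of the 26 targets 11 rose and 9 fell, with Ccl3, Ier3 and Il10 higher by 8.31, 6.73 and 6.13 from a follicular signal at background. Cxcr5, Ltb and Lta differed by -10.52, -9.80 and -9.04, with Cxcr5 and Lta at background on all 3 plasma arrays and Ltb on 2, so these sizes are set by the background level. In the same comparison 3 of the 4 tested T cell markers rose and 0 fell, with Cd4 at 6.58, 3.24 and 5.58 in plasma cells and at the floor in follicular cells. Of the 7 tested myeloid markers 6 rose and 1 fell, with Lyz2 at 13.16 ± 0.28 in plasma cells and 3.48 ± 0.51 in follicular cells, and 9 of 14 stress genes rose. Their part in the member differences was not tested. In marginal zone cells 0 members were higher and 1 lower (Rel), where 7.21% and 3.83% of tested genes were called, and 2 were higher and 5 lower at an unadjusted p under 0.05. Arrays did not overlap for 7 members and 38.1% of tested genes. Of the other 35 pathway genes 1 was higher there (Traf1, 2.14) and 1 lower (Bcl3, -1.05).

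The members also varied together from array to array inside a group. Counting each array's members above and below their own group mean, day 7 germinal center replicate 2 had 0 above and 10 below, and replicate 3 had 9 above and 1 below. Stimulated replicate 3, day 7 memory replicate 3, plasma replicate 2 and follicular replicate 2 also had 9 above. The mean deviation was -0.27 and 0.35 log2 units in the 2 germinal center arrays and 0.33 in plasma replicate 2. Over the 24 arrays, with group means removed, the 45 pairs of members had a median correlation of 0.43, with 42 above 0, against a median of 0.04 over all pairs of tested genes. The highest was 0.80 for Nfkbid with Tnfaip3, followed by 0.75 for Rela with Relb. These points share a hybridization, and the members were chosen together, so the values are a description only.

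**Figure D4:**
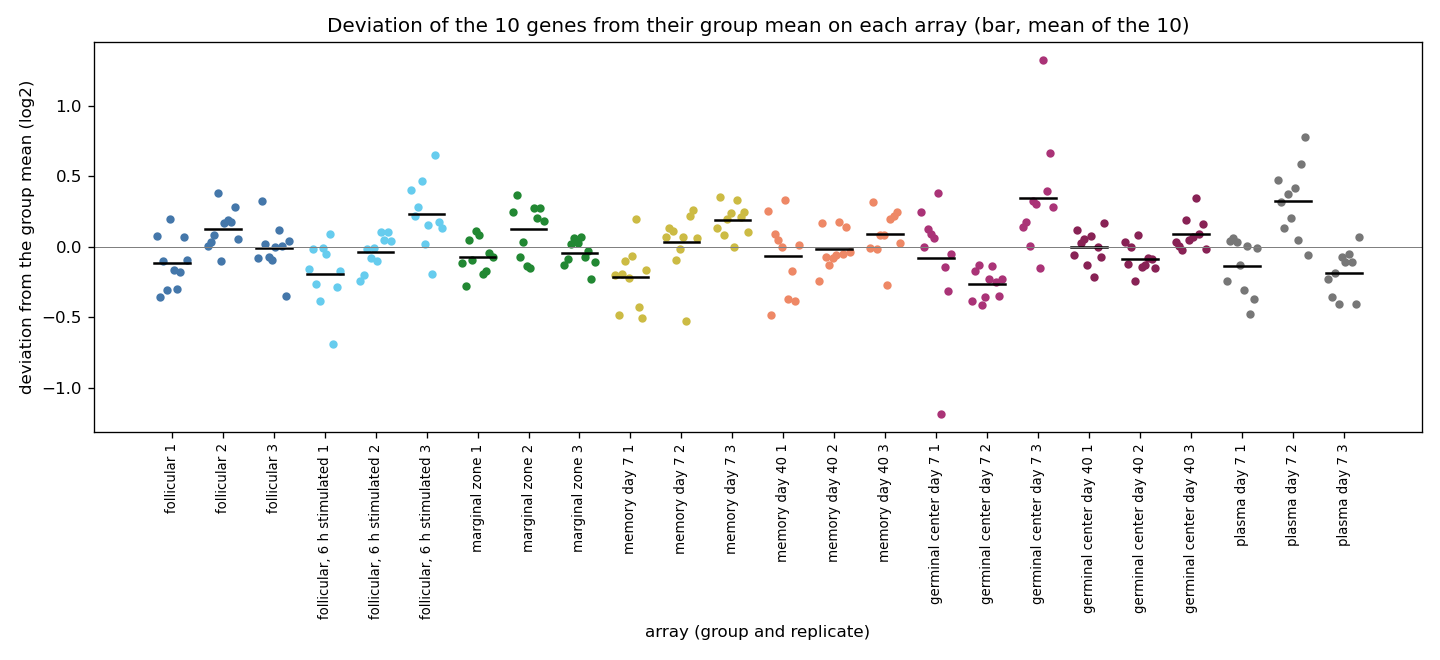
For each of the 24 arrays (horizontal axis, by group), points give the deviation of each of the 10 members from its own group mean in log2 units (vertical axis), with a bar at the mean over members. All 10 members lie below 0 in day 7 germinal center replicate 2, and 9 lie above 0 in replicate 3.

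Over the 8 group means the 45 pairs had a median r of 0.46, with 40 above 0. Nfkb2 and Relb ran closest together (r = 0.97), followed by Relb and Nfkbie (0.95) and by Rel and Tnfaip3 (0.94). The first 3 genes shared a low point in plasma cells, and Rel and Tnfaip3 a high point in memory cells. Among all tested genes, the pattern closest to Rel over the 8 group means was that of Tgif1 (r = 0.97), followed by Slc5a3 (0.96) and Nr4a1 (0.95). The closest to Tnfaip3 were Grasp (0.98), Tgif1 (0.98) and Nr4a1 (0.94), so Tgif1 and Nr4a1 appear beside both. Those closest to Nfkb2 were Per2 (0.98), Zhx2 (0.98) and Ago1 (0.98), and those closest to Relb were Ralgapa1 (0.99) and Tbc1d10a (0.98). For Nfkbie they were Crtc1 (0.99) and Adck1 (0.98), for Nfkbid Prrc2c (0.97) and Errfi1 (0.96), and for Birc3 Zfp638 (0.97), Arrb1 (0.97) and Prkce (0.97). Nfkbia, which varied least by its chosen probe set, had its closest match in Casc3 and Cflar (both 0.91). With 8 points and 11208 genes such values are a ranking, and they carry no test.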

How the data were processed

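RNA from 24 samples in 8 groups of 3 was hybridized to Affymetrix mouse arrays of 45101 probe sets. The deposited values are log2 signals that the authors computed with GCRMA, per the submitters' processing notes, whose version is not given in the sources used here. GCRMA pulls dim probe sets to a floor (2.15 here, held by 36.8% to 43.1% of probe sets per array). The size of a difference from background therefore depends on that floor. Probe sets annotated to 1 gene (34945) were reduced to the brightest per gene, giving 18193 genes, and genes above the array median on at least 3 arrays (11208) were tested. The remaining probe sets had several genes (932) or were unnamed or controls (9224). One limma 3.58.1 model (R 4.3.3) with 8 group means was fitted to all 24 arrays, with Benjamini-Hochberg adjustment over the tested genes, and the fitting was tested on simulated data. A call needed an adjusted p under 0.05 and a log2 difference of at least 1. The rule for named genes was the 10 members and the leading called genes of each list. It also covered, for each member, the genes closest in r over the group means. Not all of these closest genes are named above, and none are for Rela and Nfkbiz.

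Groups came from the sample titles. The members and the gene lists were chosen with earlier results of these data known. Alternatives were other filters, scalings, probe sets, priors and fits, and each array left out. Figures were drawn with matplotlib 3.10.9.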

Additional observations from a re-analysis of the deposited data

How the results depend on the processing

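Of 150 member differences (10 members in 15 comparisons), 56 were called, and 37 of these stayed called under every setting and every left-out array tried. The other 19 comprise 15 lost under at least 1 setting and 13 lost under at least 1 left-out array, with 9 in both counts, and 10 that were not called became so somewhere. Nfkbiz reversed with the probe set: 1.40 (mean of probe sets) and 1.39 (second probe set) on stimulation, against -0.15, and -0.067 (second probe set) in plasma against day 7 germinal center cells, against 1.23. Counts of members moved in several comparisons, and those given here are not all. The mean of probe sets added Nfkbiz (1.63) to the higher calls in day 40 memory against follicular cells. It took Tnfaip3 (-0.998) out of the lower calls in day 40 germinal center against memory cells. Leaving out stimulated replicate 3 took Nfkbid (0.94) out of the higher calls on stimulation. Further changes of the count were these. The second probe set left 3 lower in day 7 germinal center cells against follicular cells, and it or the mean of probe sets left 0 higher in day 40 against day 7 germinal center cells and 0 higher in plasma against day 7 germinal center cells. A fit of the compared groups only left 0 higher in the last comparison, 0 higher in day 40 against day 7 memory cells and 1 lower in day 40 germinal center against follicular cells. Shifting arrays to 1 median gave 2 higher and 1 lower in day 40 germinal center against follicular cells, and an offset of 16 also gave 1 lower there. In day 7 memory against stimulated cells the median shift gave 2 higher and 0 lower, the second probe set 2 higher and 1 lower, and the mean of probe sets 1 lower. Leaving out single arrays gave 0 to 1 lower in marginal zone against follicular cells, 1 to 2 higher and 1 to 2 lower in day 40 germinal center against follicular cells, 1 to 2 higher in day 40 against day 7 germinal center cells, 4 to 8 lower in day 7 germinal center against memory cells, 0 to 1 higher in plasma against day 7 germinal center cells, and 0 to 1 higher and 1 to 3 lower in day 7 memory against stimulated cells. Replicate numbers were not taken to pair the samples, since not every pair correlated above 0.1, a demand that cannot by itself tell whether samples are paired. Over 84 same-numbered pairs the correlation of deviations ran from -0.496 to 0.445, with a median of 0.0837 and 39 over 0.1. Pairs with other numbers had a median of -0.0257 and 39 of 168 over 0.1, so same-numbered pairs tended to correlate somewhat higher. With the replicate number as a block, 1 member instead of 2 was lower in day 40 germinal center against follicular cells, because Nfkbie stood at the threshold (-1.0), and no other call among the 150 changed. Median shifts of all tested genes beyond 0.1 under the common-median scaling were -0.24 on stimulation, -0.14, -0.15 and -0.18 in plasma against follicular, day 7 memory and day 7 germinal center cells, and 0.30 in day 7 memory against stimulated cells. With 3 arrays a group, differences near 1 log2 unit cannot be placed firmly on either side of the threshold.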

Other observations

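Close relatives of the 10 genes on the pathway list had patterns of their own, and those given here were chosen after their values were seen. Bcl3, a nuclear IkappaB, read 10.33, 10.62 and 10.71 in follicular cells and 5.48, 6.10 and 5.71 in plasma cells, and it was also below the follicular arrays after stimulation (8.36, 8.40 and 9.14). Nfkbib, which encodes IkappaBbeta, read 8.77, 9.31 and 9.31 in follicular cells and 10.23, 10.46 and 11.31 after stimulation, without overlap, and its plasma arrays (9.65, 9.67 and 9.75) lay above the follicular ones. Traf1, a TNF receptor adaptor, read 9.25, 9.09 and 8.85 in follicular cells and between 10.48 and 11.97 in stimulated, marginal zone, memory and germinal center cells, whereas plasma cells (8.86, 8.95 and 8.92) overlapped follicular cells. In marginal zone cells a high Traf1 (11.21, 11.23 and 11.16) therefore stood beside the lowest Rel of any group. Map3k14, the kinase of the slower pathway, was dim both after stimulation (3.35, 3.72 and 5.69) and in plasma cells (3.35, 3.46 and 3.72), against 7.90, 8.87 and 8.31 in follicular cells.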
